A study of Saccharomyces cerevisiae with 18 samples.

Results

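The 10 genes described here are the transcription factor gene ADR1 (YDR216W), the carnitine shuttle genes YAT1 (YAR035W), YAT2 (YER024W), CAT2 (YML042W) and CRC1 (YOR100C), the peroxisomal receptor gene PEX9 (YMR018W), the glyoxylate cycle genes MLS1 (YNL117W), MDH2 (YOL126C) and ICL1 (YER065C), and the gluconeogenic gene PCK1 (YKR097W). They are 10 of the 12289 features counted in each table. They were listed by identifier and chosen by their levels in the upf1 deletion against its wild type, so their differences in that contrast are given as a description without a test. RNA of budding yeast was counted in 18 libraries, 3 in each of 6 groups, to compare normal cells with cells lacking parts of the nonsense-mediated mRNA decay (NMD) machinery, which destroys mRNAs whose translation stops early. A upf1 deletion and its own wild type made up the upf1 series. The second series compared a wild type with deletions of nmd4 and of ebs1 and with libraries labelled nmd4 ebs1 double deletion. UPF1, called NAM7 in the annotation, encodes the central helicase of the pathway, and NMD4 and EBS1 encode proteins that accompany it.

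All cells grew at 30 °C in YPD, a rich medium with glucose, and were collected in exponential phase at an optical density of 0.6. The wild types and the upf1, nmd4 and ebs1 deletions were of the BY4741 background, mating type a. The labelled double deletion was of the BY4742 background, mating type alpha, so genotype and background cannot be told apart there. The upf1 series and the second series carry the initials of different experimenters in the labels, and each was counted and scaled as its own table. The library totals were 21636349 to 26880135 counts in the upf1 series and 14243384 to 31452109 in the second series. Levels are given as CPM, a gene's count relative to the scaled total of its library. NAM7 averaged 251 ± 5.18 CPM in its wild type and 8.78 ± 0.370 CPM in the upf1 deletion (SD, n = 3). NMD4 averaged 27.2 ± 4.36 CPM in the second wild type and 2.87 ± 0.853 CPM in the nmd4 deletion, and EBS1 averaged 142 ± 13.1 and 3.67 ± 0.685 CPM in the wild type and the ebs1 deletion. In the labelled double deletion EBS1 averaged 4.83 ± 1.05 CPM, whereas NMD4 averaged 73.6 ± 8.62 CPM, which goes against the nmd4 deletion in the label. The alpha-specific receptor gene STE3 was at 415 ± 39.5 CPM there and at 2.98 ± 1.73 CPM in the wild type.

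Adr1 is a zinc finger activator of genes that yeast uses on ethanol, glycerol, acetate and fatty acids, and glucose keeps both the factor and its targets low through the Snf1 kinase pathway. Carnitine acetyltransferases join acetyl groups to carnitine so that they can cross organelle membranes. The glyoxylate cycle lets cells build sugars from acetyl units, with isocitrate lyase and malate synthase as its particular steps, malate dehydrogenase following them, and phosphoenolpyruvate carboxykinase opening gluconeogenesis. Pex9 is an import receptor for a subset of peroxisomal matrix proteins, malate synthase among them.

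The stretches upstream of these genes are shown because the known control of the group runs through short sites there. The 500 bases before the RefSeq start codon of 5987 genes were scanned on both strands of the R64 genome. The letters searched were TTGGAG and TTGGGG for Adr1, GCGGGG and GTGGGG for the glucose repressor Mig1, and, for the carbon source response element (CSRE) that the activators Cat8 and Sip4 bind, CCNT followed by any 4 bases and CCG. Of the 20 matches in the 10 genes, no pair overlapped. Those before YAT1 and YAT2 are not printed. The stretches of the other genes with a match are given below, 5′ to 3′ on the strand of the gene, with every match in capitals and 20 bases on either side.
ICL1 (chrV:287282-287332, minus strand): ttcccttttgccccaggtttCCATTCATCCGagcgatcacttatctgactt
MLS1 (chrXIV:405838-405888, plus strand): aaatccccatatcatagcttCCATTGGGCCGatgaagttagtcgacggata
PCK1 (chrXI:630651-630820, plus strand): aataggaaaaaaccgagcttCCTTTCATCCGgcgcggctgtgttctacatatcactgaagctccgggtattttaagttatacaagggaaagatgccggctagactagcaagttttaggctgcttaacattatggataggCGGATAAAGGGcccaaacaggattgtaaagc
MDH2 (chrXV:83233-83373, minus strand): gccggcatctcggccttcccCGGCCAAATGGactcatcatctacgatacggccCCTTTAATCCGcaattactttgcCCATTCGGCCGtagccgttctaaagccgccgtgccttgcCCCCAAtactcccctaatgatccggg
CAT2 (chrXIII:192487-192595, plus strand): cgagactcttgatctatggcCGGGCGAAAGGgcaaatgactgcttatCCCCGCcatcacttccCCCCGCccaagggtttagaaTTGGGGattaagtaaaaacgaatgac
PEX9 (chrXIII:310026-310090, plus strand): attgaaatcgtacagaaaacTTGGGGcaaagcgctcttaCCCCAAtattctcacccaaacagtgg
The CSRE letters lay before 7 of the 10 genes, namely YAT1, YAT2, CAT2, MLS1, MDH2, ICL1 and PCK1, and before 7.07% of all genes scanned. MDH2 held 3 of them and PCK1 2, and ICL1 and MLS1 held 1 each. TTGGGG lay before YAT1, CAT2, PEX9 and MDH2 (9.84% of all genes), and PEX9 held it as an inverted pair. TTGGAG lay before YAT2 alone among the 10 (18.5% of all genes). GCGGGG lay before YAT1 and CAT2 (5.78% of all genes), and GTGGGG before YAT1 (8.54%). In YAT1 the CSRE letters and GCGGGG lay inside the counted feature, between its start and the start codon. ADR1 and CRC1 held no match, which says only that these letters are not in those windows. The ADR1 feature begins 522 bases before the start codon, so its whole window lay inside the feature and nothing upstream of it was scanned.

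The counted features differed in how much of each gene they held. For 8 of the 10 genes the feature spanned the whole RefSeq gene. The CAT2 feature (chrXIII:193641-194937, plus strand) held 57.6% of its gene and the PCK1 feature (chrXI:631848-633024, plus strand) 57.8%, each starting inside the reading frame. None of the 10 overlapped another feature on the same strand. The ADR1 feature (chrIV:894513-899457, plus strand) had the longest ends of the set, with 522 bases before the start codon and 451 bases past the RefSeq end. Only 2.51% of 4781 leaders were at least as long, and 2.54% of coding features reached at least as far past the end, where the median was 101 bases. The ADR1 leader held no ATG, as did 10 of the 120 leaders of that length or longer, while 30.3% of all leaders held one. ICL1, with a leader of 333 bases, was the one gene of the set with an upstream ATG, 1 in number, and its reading frame closed within the leader.

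In the upf1 deletion, 8 of the 10 genes were higher than in the wild type with no overlap between the groups, as were 38.6% of all 9700 features tested, and the groups of the other 2, YAT1 and MLS1, overlapped. Because this contrast chose the genes, nothing is read from that count. Over all features, 37.0% were higher, 31.8% lower and 68.8% either by edgeR's quasi-likelihood test at an adjusted threshold of 0.05, and among coding features 26.1% were higher and 44.1% lower. The median log2 difference (upf1 deletion minus wild type) was 1.20 over the 10 genes, 0.02 over all features tested and -0.13 over coding features.

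ADR1 stood at 58.9, 67.4 and 58.6 CPM in wild-type replicates 1, 2 and 3, and at 127, 124 and 117 CPM in the upf1 deletion. Every deletion library was above every wild-type library. In such bulk cultures, more RNA per cell and more cells with the RNA cannot be told apart. The fitted log2 difference was 1.00 ± 0.06 (SE), or 1.99-fold.

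The 4 carnitine genes did not move alike. YAT2, a cytosolic carnitine acetyltransferase, was at 21.0, 20.3 and 19.9 CPM in the wild type and at 82.3, 78.1 and 80.7 CPM in the upf1 deletion. That is a log2 difference of 1.98 ± 0.05, or 3.94-fold, with the smallest SE of the 10 genes. YAT1, the acetyltransferase of the mitochondrial outer surface, was at 9.63, 8.19 and 9.15 CPM in the wild type and at 9.49, 10.4 and 8.05 CPM in the deletion. Its groups overlapped, and its log2 difference was 0.05 (95% interval -0.21 to 0.31). CAT2, the acetyltransferase of peroxisomes and mitochondria, was at 8.72, 8.19 and 7.51 CPM in the wild type and at 21.8, 21.6 and 21.7 CPM in the deletion, a log2 difference of 1.41 ± 0.09. CRC1, the carrier that brings acetylcarnitine into mitochondria, was the lowest of the set, at 1.20, 1.31 and 0.923 CPM in the wild type. In the deletion it was at 4.26, 4.87 and 4.68 CPM, a log2 difference of 2.02 ± 0.17.

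PEX9 had the highest ratio of the 10. It was at 1.82, 1.86 and 1.85 CPM in the wild type and at 12.0, 11.8 and 11.3 CPM in the upf1 deletion, a log2 difference of 2.67 ± 0.12, or 6.35-fold.

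Of the glyoxylate genes, MLS1, which encodes malate synthase, was at 2.85, 2.46 and 2.77 CPM in the wild type and at 2.404, 3.26 and 3.13 CPM in the deletion. Its groups overlapped, and its log2 difference was 0.12 (95% interval -0.24 to 0.48). ICL1, which encodes isocitrate lyase, was at 17.5, 16.6 and 17.2 CPM in the wild type and at 34.7, 30.5 and 33.3 CPM in the deletion, a log2 difference of 0.94 ± 0.07. MDH2, the cytosolic malate dehydrogenase gene, was at 160.1, 160.3 and 151 CPM in the wild type and at 274, 275 and 252 CPM in the deletion, a log2 difference of 0.77 ± 0.06. The 2 enzymes particular to the cycle thus stood apart, ICL1 with separate groups and MLS1 with overlapping ones. PCK1, for phosphoenolpyruvate carboxykinase, was at 4.38, 3.92 and 3.36 CPM in the wild type and at 12.8, 12.4 and 12.3 CPM in the deletion, a log2 difference of 1.68 ± 0.12.

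**Figure D1:**
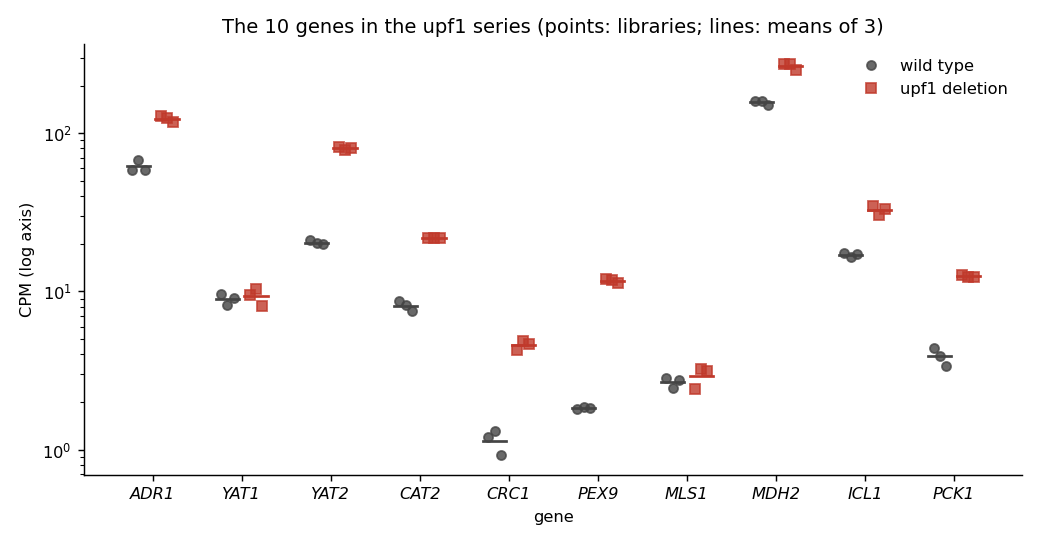
CPM of the 10 genes in the 6 libraries of the upf1 series on a log axis; circles are wild-type libraries, squares upf1 deletion libraries, and lines the means of 3. The squares lie above the circles for 8 genes and among them for YAT1 and MLS1.

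Per kilobase of feature, the order of levels in the wild type of the upf1 series ran from MDH2 at 113 ± 3.98 CPM per kb to CRC1 at 0.892 ± 0.154 (SD, n = 3). ADR1 came second at 12.5 ± 1.01, followed by ICL1 at 7.97 ± 0.213, YAT2 at 7.11 ± 0.209 and CAT2 at 6.28 ± 0.465. YAT1 at 3.74 ± 0.304 and PCK1 at 3.30 ± 0.435 overlapped in their libraries, as no other neighbours in this order did. MLS1 at 1.51 ± 0.115 and PEX9 at 1.09 ± 0.0126 came before CRC1. In the upf1 deletion YAT2 reached 28.1 ± 0.727 CPM per kb and moved from the fourth place to the second, above ADR1 at 24.8 ± 1.08. PEX9 moved from the ninth to the seventh at 6.92 ± 0.195, and MLS1 became the lowest at 1.64 ± 0.259.

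The second series asked whether the accessory factors NMD4 and EBS1 move the same transcripts. The genes were chosen by the upf1 contrast, but earlier results of these data were known. The calls and p-values of this series may thus not be free of that choice. All 10 passed the filter on low counts. The 3 mutant groups share the same 3 wild-type libraries. By edgeR's quasi-likelihood test with Benjamini-Hochberg adjustment over all 10148 features, 0 of the 10 genes were called in the nmd4 or the ebs1 deletion. The labelled double deletion had 1 call (CAT2, higher), and the comparison of the single deletions with each other had 0. Over all features 0.0493%, 0.365%, 2.39% and 0.0197% were called in these 4 comparisons. At an unadjusted p under 0.05 the counts among the 10 genes were 2, 4, 3 and 0, where 5.08%, 12.7%, 14.9% and 4.28% of all features were, and DESeq2 gave the same counts both adjusted and unadjusted. With the replicate number as a block, as the labels pair the libraries, the calls over all features went from 5 to 10, from 37 to 571, from 243 to 893 and from 2 to 4. The groups did not overlap for 2, 2, 1 and 3 of the 10 genes, where 7.89%, 15.3%, 18.4% and 10.4% of all features did not.

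CAT2 was the only gene of the set called in this series with all libraries in the fit. It was at 5.16, 5.73 and 6.30 CPM in the wild type, at 6.36, 6.96 and 7.08 CPM in the nmd4 deletion, at 8.69, 6.93 and 9.72 CPM in the ebs1 deletion, and at 9.02, 8.25 and 10.6 CPM in the labelled double deletion. All 9 mutant libraries were above the 3 wild-type libraries, which every mutant group is compared with. How many of all features do the same was not counted. In the wild type of the upf1 series, scaled apart, CAT2 was at 7.51 to 8.72 CPM, within the range of these mutants. It rose in the labelled double deletion, with a log2 difference of 0.69 ± 0.16 (edgeR adjusted p = 0.0425), and 0.384% of all features were lower there and 2.01% higher. That call was lost in 10 of the 12 fits that left out 1 library, where the adjusted p reached 0.187 without labelled double deletion replicate 3, and the log2 difference stayed between 0.59 and 0.79. It held without ebs1 deletion replicate 2 (adjusted p = 0.0330) or 3 (adjusted p = 0.0447). In the ebs1 deletion the CAT2 difference was 0.56 ± 0.16 (edgeR adjusted p = 0.167), and with the replicate block it was past the threshold (edgeR adjusted p = 0.0332). In the nmd4 deletion it was 0.24 ± 0.16 (edgeR adjusted p = 0.999).

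ADR1 was at 63.9, 129 and 79.5 CPM in wild-type replicates 1, 2 and 3, so replicate 2 was above every mutant library by a wide margin. It was at 59.0, 60.1 and 50.2 CPM in the nmd4 deletion, at 67.4, 65.2 and 66.1 CPM in the ebs1 deletion and at 64.2, 59.1 and 60.5 CPM in the labelled double deletion. The log2 difference was -0.68 ± 0.20 in the nmd4 deletion (edgeR adjusted p = 0.794), -0.45 ± 0.20 in the ebs1 deletion (edgeR adjusted p = 0.370) and -0.57 ± 0.20 in the labelled double deletion (edgeR adjusted p = 0.195). In the labelled double deletion the value was -0.76 without wild-type replicate 1, past the threshold (edgeR adjusted p = 0.0416), and -0.22 without wild-type replicate 2. Without wild-type replicate 2 it was -0.35 in the nmd4 deletion and -0.11 in the ebs1 deletion. By mean level the order in this series was wild type, ebs1 deletion, labelled double deletion and nmd4 deletion. The ebs1 and labelled double deletion libraries did not overlap, while those of the labelled double and nmd4 deletions did.

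MDH2 was also highest in the wild type, at 227, 304 and 299 CPM, whereas the nmd4 libraries lay between 190.0 and 229.7 CPM, the ebs1 libraries between 201 and 240.4 CPM and the labelled double libraries between 196 and 236 CPM. Wild-type replicates 2 and 3 were above all 9 mutant libraries, and replicate 1 lay among them. The log2 differences were -0.39 ± 0.13, -0.34 ± 0.13 and -0.33 ± 0.13, and none passed (edgeR adjusted p = 0.868, 0.303 and 0.258).

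YAT1 varied more between replicates than between genotypes. It was at 12.3, 2.83 and 35.4 CPM in the wild type, at 11.5, 2.86 and 8.86 CPM in the nmd4 deletion, at 13.1, 2.19 and 7.98 CPM in the ebs1 deletion and at 9.35, 4.42 and 7.07 CPM in the labelled double deletion. Replicate 2 was the lowest of its group in all 4 groups, and wild-type replicate 3 was the highest of all. The log2 differences from the wild type were -1.15 ± 0.79, -1.14 ± 0.79 and -1.30 ± 0.79, with 95% intervals from -3.02 to 0.57 in all. Without wild-type replicate 3 they were 0.02, 0.02 and -0.13. All 3 intervals take in 0. They come from the fit without the replicate block, so the spread between replicate numbers widens them. With the block YAT1 was not called either.

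**Figure D2:**
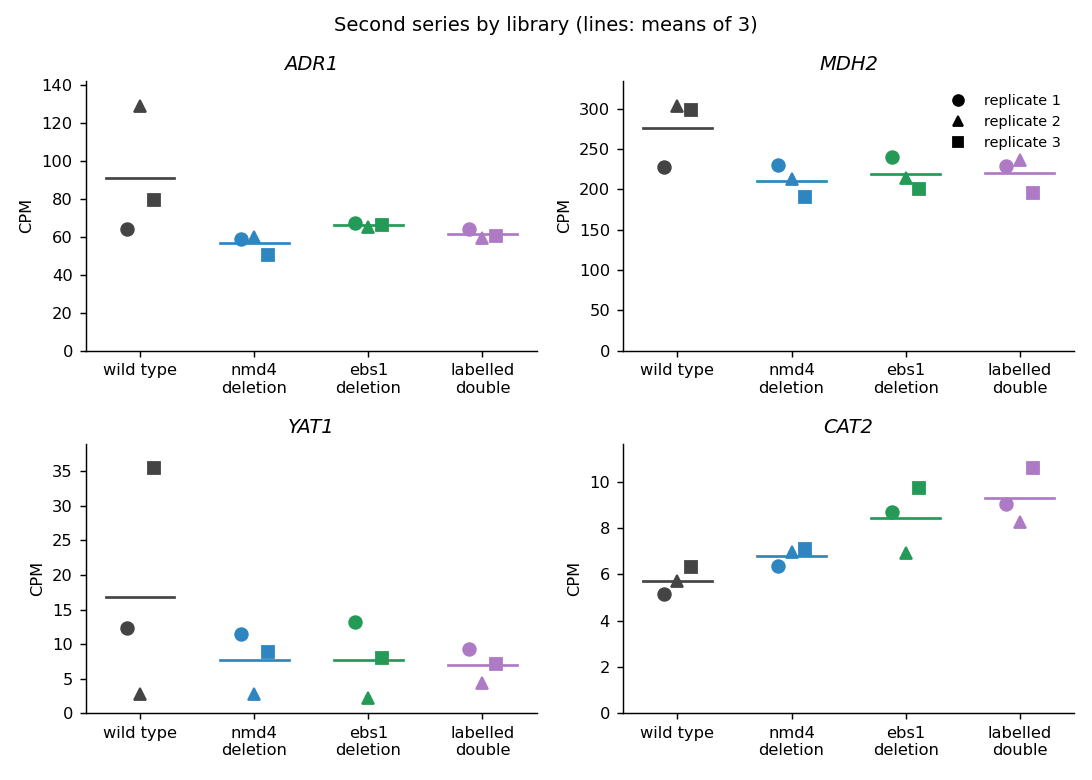
CPM of ADR1, MDH2, YAT1 and CAT2 in the 12 libraries of the second series; marker shape gives the replicate number and lines the means of 3. Wild-type replicate 2 stands above the rest for ADR1, replicate 2 is the lowest of each group for YAT1, and the mutant libraries lie above the wild type for CAT2.

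The other 6 genes did not pass in any of the 4 comparisons of the second series. YAT2 was the steadiest, at 22.5, 25.7 and 29.3 CPM in the wild type and between 23.4 and 25.4 CPM in the 9 mutant libraries. Its log2 differences from the wild type lay between -0.10 and -0.07, with 95% intervals inside -0.32 to 0.16, well short of its difference in the upf1 series. ICL1 was at 19.8, 18.8 and 16.5 CPM in the wild type and between 18.6 and 22.5 CPM in the mutants, with a log2 difference of 0.23 ± 0.10 in the ebs1 deletion (edgeR adjusted p = 0.357). PEX9 lay between 1.60 and 3.43 CPM in all 12 libraries, and its highest upper 95% bound against the wild type was 0.59 on the log2 scale. The intervals of CRC1, MLS1 and PCK1 were wider, and the wild-type libraries of these genes differed. CRC1 was at 0.898, 1.23 and 3.21 CPM there, MLS1 at 2.64, 0.580 and 3.78 CPM, and PCK1 at 2.13, 4.06 and 7.48 CPM. Wild-type replicate 3 was the highest of the 12 libraries for each of these 3 genes, and was the highest for YAT1 and YAT2 as well. What sets wild-type replicates 2 and 3 apart was not tested.

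**Figure D3:**
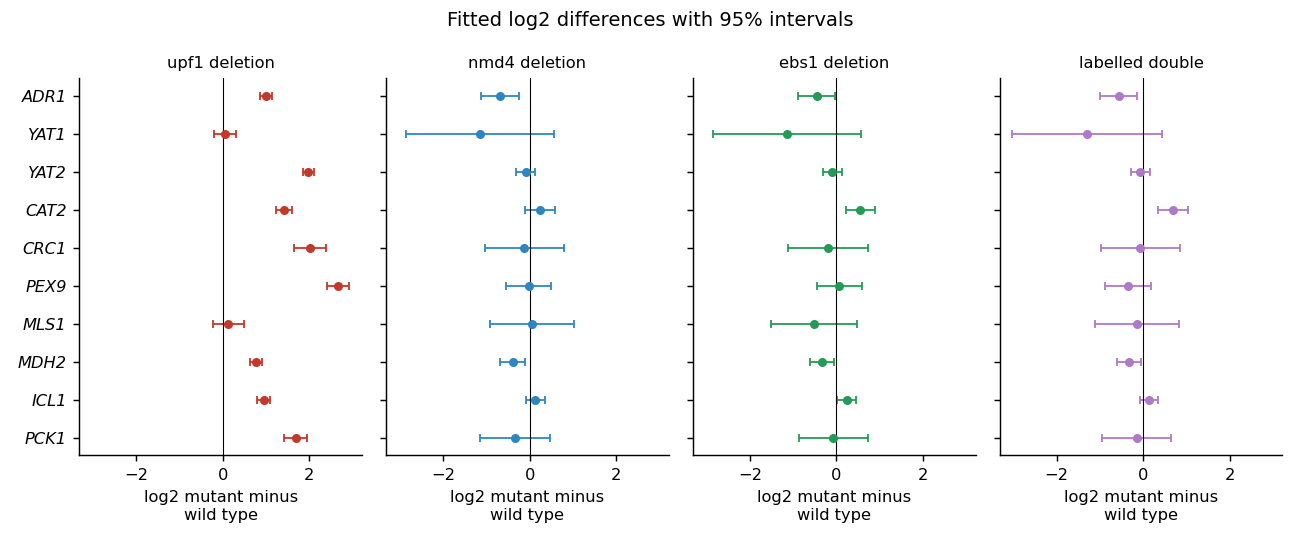
Fitted log2 differences (mutant minus wild type) of the 10 genes with 95% intervals from the edgeR fit, 1 panel per mutant. In the upf1 panel 8 intervals lie above 0, in the contrast that chose the genes; in the other panels most intervals cross 0, and those of YAT1 are the widest.

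Transcripts of the opposite strand were counted over several of the genes. The annotation holds Xrn1-sensitive unstable transcripts (XUTs), stable unannotated transcripts (SUTs) and cryptic unstable transcripts (CUTs), non-coding RNAs that are short-lived in wild-type cells to differing degrees. Of these, 15 overlapped 7 of the 10 genes, all 15 antisense and none on the same strand. By edgeR's quasi-likelihood test 6 of the 12 that could be tested rose in the upf1 deletion and none fell, beside 56.5% of all XUT, SUT and CUT features higher. In each comparison of the second series 0 of 13 were called by edgeR, and DESeq2 called 0 too. Of all XUT, SUT and CUT features edgeR called 0.294% higher in the ebs1 deletion, 2.83% in the labelled double deletion and 0.0% in the other comparisons. At an unadjusted p under 0.05 either tool counted 0, 2, 2 and 3 of the 13. By edgeR 5.08%, 12.7%, 14.9% and 4.28% of all features were under it. The 2 of the ebs1 deletion and of the labelled double deletion by edgeR were XUT_5F-139 and SUT093, which share their reads over ICL1. Both were also among the 3 between the single deletions.

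The most abundant covered ICL1 from end to end. XUT_5F-139 (chrV:284416-287558, plus strand) was at 20.2, 18.4 and 17.0 CPM in the wild type and at 72.6, 66.5 and 68.0 CPM in the upf1 deletion. The groups were far apart, and the feature rose by a log2 difference of 1.89 ± 0.07 (edgeR adjusted p = 2.48e-09). SUT093 covers nearly the same bases and shares its reads, with the same log2 difference of 1.89. For each ICL1 count the antisense feature held 0.990 to 1.16 counts in the wild type and, without UPF1, 2.04 to 2.18 counts, so sense and antisense were both higher, the antisense by more. In the second series XUT_5F-139 was at 24.6, 18.3 and 30.4 CPM in the wild type, whereas its range was 24.8 to 25.0 CPM with nmd4 deleted, 31.1 to 34.0 CPM with ebs1 deleted and 30.0 to 38.5 CPM in the labelled double deletion. Its log2 difference was 0.39 ± 0.16 in the ebs1 deletion (edgeR adjusted p = 0.348) and 0.42 ± 0.16 in the labelled double deletion (edgeR adjusted p = 0.234).

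MLS1, whose sense level overlapped between the groups, had an antisense feature that did not. XUT_14R-162 (chrXIV:405950-408066, minus strand), named after its values were seen, was at 3.02, 3.27 and 2.56 CPM in the wild type and at 5.86, 6.24 and 6.11 CPM in the upf1 deletion. It rose by a log2 difference of 1.05 ± 0.13 (edgeR adjusted p = 3.48e-05). XUT_11R-267 over PCK1, also named after its values were seen, held 6, 2 and 5 counts in the wild type and 19, 32 and 18 in the deletion, a log2 difference of 2.19 ± 0.37 (edgeR adjusted p = 0.000337). Over YAT2, XUT_5R-97 was at 4.71, 5.48 and 4.53 CPM in the wild type and at 7.55, 5.29 and 9.52 CPM in the deletion. Its groups overlapped, and its log2 difference of 0.60 ± 0.19 (edgeR adjusted p = 0.0171) no longer passed without wild-type replicate 1 or 3 or deletion replicate 3. SUT512, which shares those reads, differed by 0.51 ± 0.21 (edgeR adjusted p = 0.0492), and that call was lost in 5 of the 6 fits that left out 1 library, all but the one without upf1 deletion replicate 2.

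**Figure D4:**
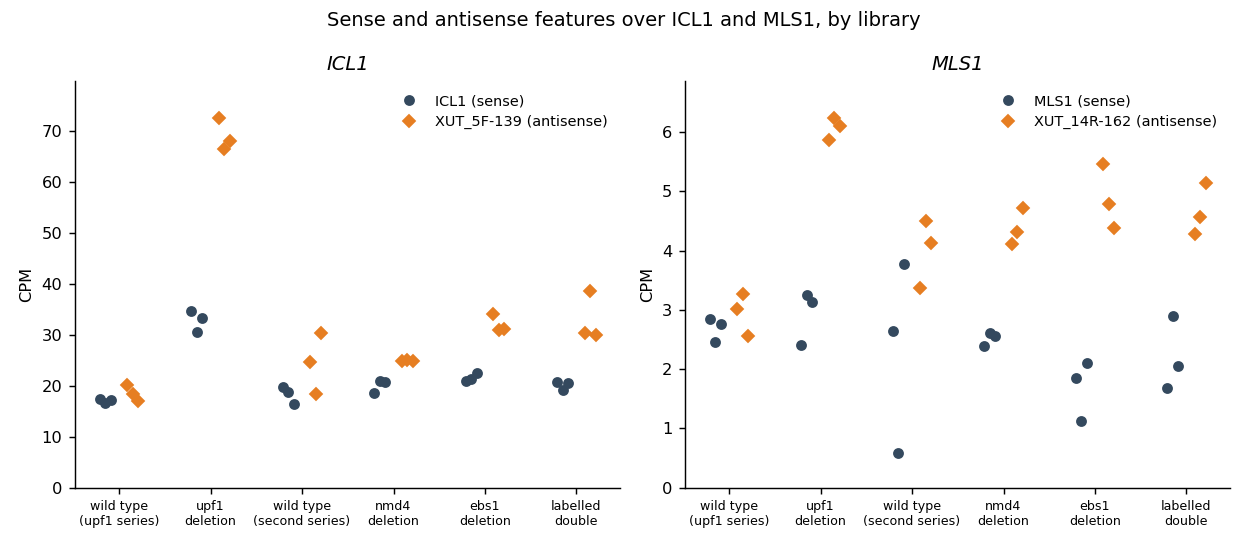
CPM of the sense feature (circles) and the antisense XUT (diamonds) over ICL1 and MLS1, by library, in all 6 groups; the 2 series were scaled apart. Over ICL1 the antisense feature reached 66.5 to 72.6 CPM in the upf1 deletion; over MLS1 only the antisense feature stands apart from its wild type.

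The genes around these 10 in the same pathways were taken from 7 lists that leave the 10 out, 102 distinct genes of which 101 could be tested. The lists too were chosen with earlier results of these data known, so their counts and p-values below are a description. In the upf1 deletion 42 rose and 19 fell by edgeR's quasi-likelihood test, in a fit where 37.0% of all features and 26.1% of coding features were higher, and 31.8% and 44.1% lower. The counts of each list below stand against those shares. Scaling on coding features alone moved the median of all features from 0.02 to 0.15 on the log2 scale. The median of coding features, to which all list genes belong, moved from -0.13 to -0.002. The counts that moved with the scaling are given beside each list.

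Of 14 known Adr1 targets, 7 rose and 1 fell in the upf1 deletion, and 7 rose and none fell with coding scaling, with a median log2 difference of 0.45, or 0.57 with coding scaling. Those named by the smallest p were GUT1, for glycerol kinase, at 0.63 ± 0.06 (edgeR adjusted p = 4.17e-06), CTA1, for peroxisomal catalase, at 0.67 ± 0.13, ALD4, for mitochondrial aldehyde dehydrogenase, at 0.42 ± 0.06, and GIP2, for a phosphatase regulator, at 0.48 ± 0.08. ADH2, the alcohol dehydrogenase gene for which Adr1 is named, was at 3.07 CPM in the wild type and 3.10 CPM in the deletion, a log2 difference of 0.02 ± 0.14 that did not pass.

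Of 22 genes of the Snf1 pathway and carbon source regulation, 6 rose and 9 fell, and with coding scaling 7 rose and 3 fell, which turned the median log2 difference from -0.07 to 0.05. PIP2, for a factor that acts on oleate-responsive genes, rose by 0.97 ± 0.05 (edgeR adjusted p = 5.00e-08), MIG3, for a repressor related to Mig1, by 0.84 ± 0.07, and RDS2, for a regulator of gluconeogenic genes, by 0.68 ± 0.07. BMH1, for a 14-3-3 protein that holds Adr1 inactive, fell by 0.47 ± 0.06 on the log2 scale. CAT8, whose product binds the CSRE, was at 17.9 CPM in the wild type and 17.7 CPM in the deletion and did not pass.

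Of 15 further genes of the glyoxylate cycle and gluconeogenesis, 8 rose and 1 fell (10 and 1 with coding scaling), with a median log2 difference of 0.18, or 0.30 with coding scaling. DAL7, for the malate synthase of allantoin use, rose from 22.8 ± 0.615 to 219 ± 6.77 CPM, a log2 difference of 3.26 ± 0.06 (edgeR adjusted p = 2.92e-11), so the paralogue of MLS1 stood far from MLS1 itself. IDP2, for cytosolic isocitrate dehydrogenase, rose by 1.32 ± 0.12 and CIT3, for a mitochondrial citrate synthase, by 0.68 ± 0.14. MDH3, the peroxisomal malate dehydrogenase gene, fell by 0.27 ± 0.06 on the log2 scale. FBP1, for fructose bisphosphatase, was at 1.98 CPM in the wild type and 1.95 CPM in the deletion.

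Of 7 genes of acetyl-CoA supply and carnitine entry, 2 rose and 2 fell (2 and 1 with coding scaling, where ACS2 no longer passed), with a median log2 difference of 0.02, or 0.15 with coding scaling. ALD6, for cytosolic aldehyde dehydrogenase, fell from 1076 to 686 CPM, by 0.65 ± 0.06 on the log2 scale (edgeR adjusted p = 2.51e-06), and ACS2, for the acetyl-CoA synthetase used on glucose, fell by 0.20 ± 0.06. ACH1, for a CoA transferase, rose by 0.23 ± 0.05, and ALD4 is given above. AGP2, for the plasma membrane protein that brings carnitine into the cell, was at 22.5 CPM in the wild type and 22.1 CPM in the deletion.

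Of 17 tested genes of peroxisomal beta-oxidation, 8 rose and 1 fell (9 and 1 with coding scaling), with a median log2 difference of 0.36, or 0.48 with coding scaling. FAA2, for an acyl-CoA synthetase, rose by 1.38 ± 0.08 (edgeR adjusted p = 4.02e-08), DCI1, for a dienoyl-CoA isomerase, by 1.38 ± 0.09, PXA1, for a subunit of the peroxisomal fatty acid transporter, by 1.28 ± 0.10, and ECI1, for an enoyl-CoA isomerase, by 0.78 ± 0.09. POX1, for the acyl-CoA oxidase that opens the pathway, was at 1.09 CPM in the wild type and 1.24 CPM in the deletion. The partner of PXA1, PXA2, was too low to test, at 0.142 and 0.238 CPM.

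Of 27 other PEX genes, 10 rose and 7 fell (14 and 4 with coding scaling), with a median log2 difference of 0.12, or 0.25 with coding scaling. PEX10, for a ubiquitin ligase of the import machinery, rose by 1.46 ± 0.06 (edgeR adjusted p = 4.33e-09), PEX6, for an ATPase that recycles receptors, by 1.42 ± 0.06, and PEX28, for a regulator of peroxisome number, by 1.40 ± 0.06. PEX4, for a ubiquitin-conjugating enzyme, rose by 1.01 ± 0.08, and its feature shares reads with an overlapping gene. PEX5, the general receptor to which Pex9 is related, was at 48.2 CPM in the wild type and 44.9 CPM in the deletion, a log2 difference of -0.10 ± 0.06 that did not pass. Of 10 genes of the GID ubiquitin ligase, which degrades gluconeogenic enzymes after glucose is added, 6 rose and none fell under either scaling, with a median log2 difference of 0.26, or 0.38 with coding scaling. GID7 rose by 0.80 ± 0.07 (edgeR adjusted p = 1.91e-06), GID11 by 0.65 ± 0.06, GID8 by 0.63 ± 0.11 and FYV10 by 0.35 ± 0.06.

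**Figure D5:**
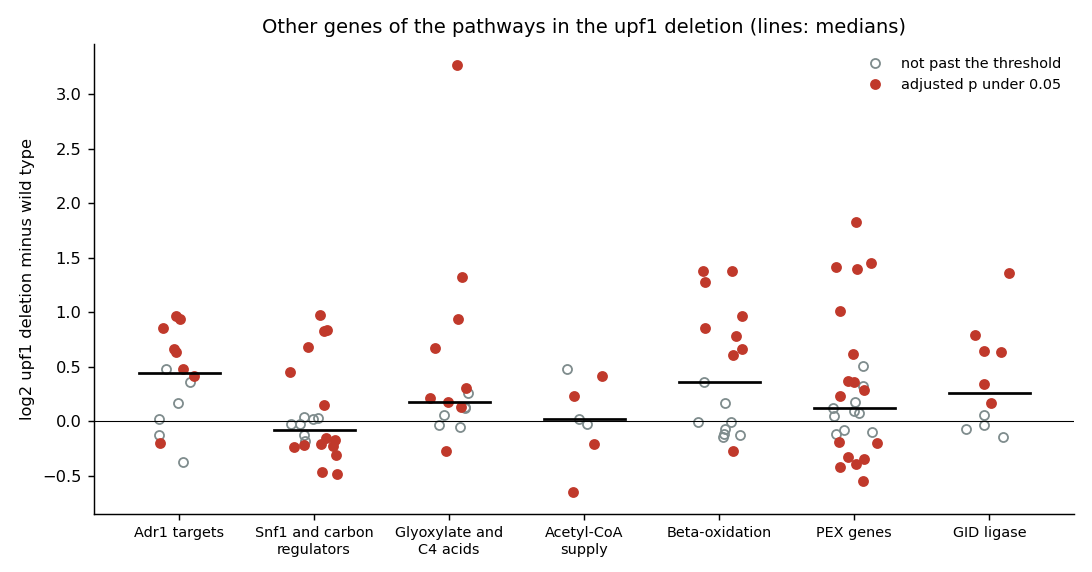
Log2 differences (upf1 deletion minus wild type) of the genes of the 7 lists; filled points passed the edgeR threshold, open points did not, and lines are medians. The highest point is DAL7 at 3.26, and the list of Snf1 and carbon regulators holds points on both sides of 0; some genes stand in more than 1 list.

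In the second series the same 101 genes gave 0 calls with nmd4 deleted, 0 with ebs1 deleted, 1 in the labelled double deletion and 0 between the single deletions by edgeR, with 2, 14, 16 and 5 at an unadjusted p under 0.05, where 5.08%, 12.7%, 14.9% and 4.28% of all features were. DESeq2 called 0, 3, 1 and 0. The call was DAL7, at 17.1 ± 0.908 CPM in the wild type and 23.7 ± 1.92 CPM in the labelled double deletion, a log2 difference of 0.47 ± 0.11 (edgeR adjusted p = 0.0477) that was lost in all 12 fits without 1 library, where the adjusted p reached 0.189. With the replicate block 6 of the 101 genes rose and none fell in the ebs1 deletion, and 6 rose and 2 fell in the labelled double deletion. In the same blocked fit 327 of all 10148 features rose and 244 fell in the ebs1 deletion. For the labelled double deletion 525 rose and 368 fell, so nothing particular to the lists is read from these counts.

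The features whose pattern was most like that of ADR1 over the 18 libraries, after each series' own mean was taken off, were CIN5 (Pearson r = 0.93), YDR541C (0.92), MDH2 (0.92), YGR109W-B (0.91) and RIB4 (0.90), out of 5094 coding features ranked. CIN5 encodes a stress-related transcription factor and RIB4 an enzyme of riboflavin synthesis, while YGR109W-B is a retrotransposon reading frame with near-identical copies, so its count is uncertain. These values are a description, and they share the upf1 difference that all 5 features have. Within the 12 libraries of the second series r was 0.83, 0.82, 0.81, 0.86 and 0.79. Without wild-type replicate 2, the library in which ADR1 was highest, r over 11 libraries was 0.26 for CIN5, 0.31 for YDR541C and 0.46 for YGR109W-B, and 0.76 for MDH2 and 0.82 for RIB4. Of the other members, YAT2 had an r of 0.76 with ADR1 over the 18 libraries and 0.38 within the second series, PEX9 0.67 and -0.13, PCK1 0.65 and 0.15, and ICL1 0.60 and -0.39. CRC1 had 0.57 and -0.11, CAT2 0.50 and -0.35, YAT1 -0.09 and -0.14, and MLS1 -0.41 and -0.67. For these members r was not computed without wild-type replicate 2, which was also the library in which MLS1 was lowest, at 8 counts.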

How the data were processed

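Total RNA depleted of ribosomal RNA was sequenced in stranded TruSeq libraries, per the labels' protocols. The authors deposited raw read counts per feature, made per the file headers with featureCounts (Subread 1.5.0-p3) on the sense strand, with reads given to every overlapping feature and multiply aligned reads left out. Alignment with STAR 2.4.2a to R64 is per the submitters' processing notes. The chromosome lengths of the RefSeq R64 reference used for start codons, neighbours and sequences held the coordinates of all 16 nuclear chromosomes.

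Counts were fitted in R 4.3.3 with edgeR 4.0.16 (filterByExpr, TMM, quasi-likelihood test, two-sided, Benjamini-Hochberg over all features, threshold 0.05), the upf1 series on 6 libraries and the second series on 12 libraries in 4 groups. The script was tested on simulated data. There it called 83.6% of 1.5-fold and 97.0% of 2-fold changes in the upf1 comparison, but 19.4% and 74.6% in the ebs1 comparison. A missing call in the second series thus does not show that a gene is unchanged. CPM are TMM-scaled, and SE is the absolute log2 difference over the square root of F. Likeness used log2 CPM with a prior count of 2 and ranked features with a mean of at least 10 CPM. The other members were given without that limit, and YAT1, PCK1, PEX9, MLS1 and CRC1 lay below it. DESeq2 1.42.0 and other alternatives are given in the closing section. Python 3.11.15 was used for tables and plots.

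The labels say that libraries of the same number were run in parallel, and this pairs them. Deviations from group means correlated with a median r of 0.186 (0.0167 to 0.429) for same-numbered pairs in the upf1 series and 0.728 (-0.00787 to 0.866) in the second. For other pairs it was -0.111 and -0.374. Deviations cancel out within each group, so these negative values largely follow from the positive ones and are no separate contrast. The labels do not say that replicates were separate cultures, so a p-value reflects only how far these samples spread, which may be technical.

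The 10 genes and the lists were chosen with earlier results of these data known. Named were the 10 genes, up to 4 list genes per comparison with the smallest p past the threshold, the 5 features most like ADR1, the 4 most abundant overlapping transcripts and the deleted genes. ADH2, CAT8, FBP1, AGP2, POX1, PXA2, PEX5, XUT_14R-162 and XUT_11R-267 were named after their values were seen.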

Additional observations from a re-analysis of the deposited data

How the results depend on the processing

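In the upf1 deletion, whose values chose the 10 genes, their count is no measure of stability. The list genes called there ranged from 55 to 61 when 1 library was left out. In the ebs1 deletion, 0 of the 10 genes became 1 (CAT2) with the replicate block, and 0 of the list genes became 3 with DESeq2 (DAL7, PEX4, RDS2), 1 with coding scaling (DAL7), 6 with the replicate block and 0 to 1 without 1 library (PEX21 without wild-type replicate 1). In the labelled double deletion, 1 call among the 10 genes became 0 to 1 without 1 library, where the 1 without wild-type replicate 1 was ADR1, lower. The 1 list gene there became 0 with DESeq2 size factors, 0 without a filter, 8 with the replicate block and 0 to 0 without 1 library. These genes were named after their values were seen, and the cause was not tested. The replicate block changed no other call among the 10 genes. Of 1168 values of single features under alternatives, 1132 kept their direction and side of the threshold, 34 lost the call, 2 gained one and 0 reversed.

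Over all features, DESeq2 called 12 for 5 in the nmd4 deletion, 241 for 37 in the ebs1 deletion, 428 for 243 in the labelled double deletion and 24 for 2 between the single deletions. Coding scaling called 79 in the ebs1 deletion, and DESeq2 size factors 24 and no filter 25. Leaving out 1 library gave 1 to 4, 4 to 53, 114 to 233 and 2 to 3. The split in the upf1 deletion was 3592 higher and 3086 lower, and 4119 and 2084 with coding scaling. In the second wild type CRC1 rested on 16, 17 and 84 counts and MLS1 on 47, 8 and 99.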
